A study of Oryza sativa with 8 samples.

Results

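In rice under salt, 99 genes were higher in the leaf sheath and lower in the leaf blade. They were chosen by direction alone: a gene had to be listed in the authors' deposited tables of both tissues, with a sheath level above control and a mean blade TPM (transcript abundance per length and per library) below control. The tables held 5827 genes between them, 4623 for blades and 1998 for sheaths, and 794 were in both. Before the choice, 18 of these 794 were set aside, and the 99 genes are 12.8% of the 776 that remained. Of the other shared genes, 458 were higher in both tissues, 47 were lower in both, and 172 had the opposite pattern, lower in sheaths and higher in blades. Because the directions chose the 99 genes, their changes are described here and not tested, and nothing is read from that share.

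The blade is the flat, main photosynthetic part of a rice leaf, and the sheath is the part that wraps the stem below it. Sheath tissue can hold back sodium that would otherwise reach the blade, and salt is known to depress carbon fixation in blades. Several of the genes described below act in chloroplasts, where light-driven electron transport feeds carbon fixation, or in photorespiration, which recovers carbon after the carbon-fixing enzyme has taken up oxygen in place of carbon dioxide.

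RNA was sequenced from 8 samples of Oryza sativa grown in hydroponic culture, with 2 for control and 2 for salt in each of the blade and the sheath. Salt plants received 100 mM NaCl for 24 h. The study concerns rice called SZK and sets it beside FL478, which tolerates salt, and Kunishi, which is sensitive to it, but the sample labels name no variety, age or allele. Separate plants are not stated for the 2 samples of a group, so the p-values of the authors may reflect no more than technical variation between libraries.

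The deposited tables give 1 value per group and no value per sample, so no spread can be shown, and whether samples of the groups overlapped cannot be told. Sheath levels carry no named unit and were never set against blade TPM directly, and how deeply the sheath libraries were sequenced is not known. The listed blade genes summed to 10745825 mean reads in control and 9995664 with salt. In bulk tissue, fewer cells of a type and less RNA per cell cannot be told apart. Of 4 green-leaf markers, Os12g0274700, CAB2R and RCA were listed in blades, each lower with salt, and none was listed in sheaths. The small subunit marker Os12g0274700 went from a mean of 53569 to 28778 TPM, so the blade samples carried abundant green-tissue RNA in both groups. The shoot meristem marker OSH1 was in neither table.

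All 99 genes were lower in blades by each of the deposited measures. By mean TPM, which chose them, 48.1% of the blade table was lower with salt, and by the deposited log2 fold change 48.3% was. For all 99 the exact 95% counting interval of the scaled read ratio also lay below 1, as for 48.3% of the blade table, though such intervals cover counting error and not differences between plants. On the sheath side, 45.6% of the listed genes were higher with salt. These backgrounds belong to the contrasts that chose the genes, so nothing is read from them.

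Most of the changes were small. The authors' deposited blade log2 fold change had a median of -0.50 over the 99 genes, with a range of -2.69 to -0.20, against a median of -0.65 over all blade genes that were lower. Mean blade TPM was lower by 1.18% to 81.7%, with a median of 20.2%. In sheaths the group level was 1.44-fold to 10.2-fold higher, with a median of 1.72-fold. The median deposited sheath log2 fold change was 0.74, against 0.95 over all sheath genes that were higher. So 72 of the 99 genes were under 1 on the log2 scale in both tissues.

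Large changes were fewer. At least 1 lower on the log2 scale in blades were 14 genes, or 14.1%, where 12.5% of the whole blade table was and 25.9% of the 2231 blade genes with a negative deposited log2 fold change. At least 1 higher in sheaths were 20 genes, or 20.2%, where 20.8% of the whole sheath table was and 45.7% of the 911 sheath genes that were higher. Beside listed genes of the same direction, large changes were thus less frequent among the 99, a description and not a test. The comparison is not matched for level: median blade control TPM was 118 for the 99 and 24.1 for all blade genes that were lower. What part level had in the difference was not tested. Both held for 7 genes, 0.902% of the 776 shared genes. Across the 99 genes, Spearman's rho between the 2 deposited log2 fold changes was -0.28, a description over genes that share the same libraries.

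**Figure D1:**
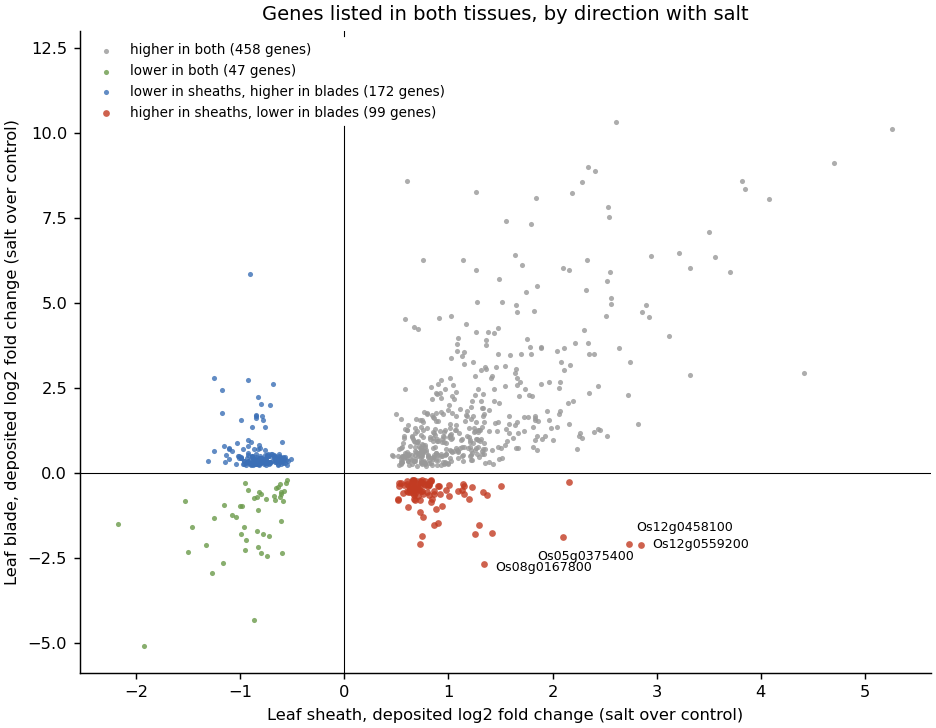
Deposited log2 fold change with salt in leaf sheaths (horizontal) and leaf blades (vertical) for the 776 genes listed in both tissues, 1 point per gene, coloured by direction (blade direction from mean TPM, so 2 genes just below 0 are counted as higher in both). The 99 genes higher in sheaths and lower in blades fill the lower right, most of them close to 0 on the blade axis, and 4 of the 7 genes that moved by at least 1 in both tissues are named.

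The 7 genes with large opposed changes were low to moderate in level. Os12g0559200 had the largest deposited sheath log2 fold change of all 99 genes. Its sheath level went from 3.27 in control to 29.8 with salt, and its blade mean went from 15.4 to 4.20 TPM. In the authors' deposited tables this was a log2 fold change of 2.85 in sheaths (adjusted p = 8.2e-55) and -2.11 in blades (q = 6.55e-07). Behind the blade value stood a mean of 859 reads in control and 216.5 with salt, and the scaled ratio had a counting interval of 0.207 to 0.257.

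Os12g0458100 had nearly the same profile, and the largest ratio of sheath group levels of the 99, at 10.2-fold. Sheath control stood at 1.57 and sheath salt at 16.1, while blade means were 11.9 TPM in control and 3.25 TPM with salt. The authors' deposited tables give log2 fold changes of 2.73 in sheaths (adjusted p = 8.9e-25) and -2.08 in blades (q = 8.98e-04). These 2 genes, both on chromosome 12, were the ones with fold changes past 2 on the log2 scale in both directions.

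Os05g0375400 came next. In sheaths it was at 5.64 in control and 27.4 with salt, and in blades it was at 26.5 and 8.19 TPM. The authors' deposited tables give 2.10 for sheaths (adjusted p = 2.2e-18) and -1.89 for blades on the log2 scale, with a blade q of 2.86e-36 that was the lowest among the 99 genes.

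The other 4 of these genes had sheath levels of at most 7.08. Os03g0341600 was at 2.02 and 7.08 in sheaths and at 16.94 and 5.64 TPM in blades, control first. Os07g0677400 was at 1.35 and 4.77 in sheaths and at 36.0 and 14.3 TPM in blades. Both had a sheath level in control low in the ranks of the 776 shared genes, while their blade means in control were near the middle.

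Os08g0167800 had the largest blade fall, from 1.61 to 0.295 TPM, which rested on a mean of 41.5 reads in control and 7 with salt. The counting interval of its scaled ratio, 0.0809 to 0.274, was correspondingly wide. Its sheath level went from 1.30 to 4.84. Os01g0793300 had the lowest control level of the 99 genes in both tissues, at 1.26 and 0.415 TPM in blades and 0.237 and 1.96 in sheaths.

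For these low genes the size of the sheath change depended on how it was expressed. The authors' deposited sheath log2 fold change is the ratio of group levels with 1 added to each, whereas statistic times standard error gives the estimate that their test used. For Os01g0793300 the deposited fold change was 1.26 and the tested estimate 3.06, with a standard error of 0.545 that was the largest of the 99. Os08g0167800, Os07g0677400 and Os03g0341600 had deposited values of 1.34, 1.30 and 1.42 in the authors' table against tested estimates of 1.91, 1.83 and 1.82. Over all 99 genes the 2 measures had medians of 0.74 and 0.80, and the direction was the same for every one of the 99.

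**Figure D2:**
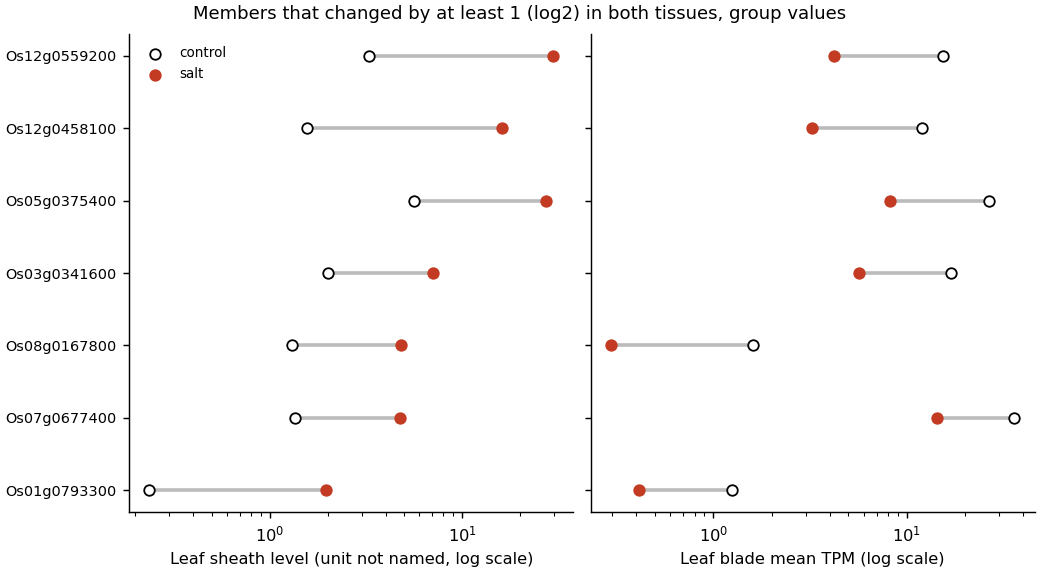
Group values of the 7 genes that moved by at least 1 on the log2 scale in both tissues, control (open) and salt (filled), as the deposited sheath level on the left and the deposited mean blade TPM on the right, both on log axes. Os12g0559200 runs from 3.27 to 29.8 in sheaths and from 15.4 down to 4.20 TPM in blades, and Os01g0793300 is the lowest of the 7 in sheaths.

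The blade q-values of the leading genes did not all follow their fold changes. Blade genes with a deposited log2 fold change within 0.25 of that of Os12g0559200 and control reads within a factor of 2 numbered 12, and their median q in the authors' deposited table was 1.43e-36, far below its own 6.55e-07. For Os12g0458100 the 11 like genes had a median q of 3.76e-19 in the authors' deposited table, and none of them had a higher q than its 8.98e-04. Os05g0375400 was on the other side, since 13 of its 17 like genes had a higher q. Nearer the middle were Os08g0167800, Os01g0793300, Os03g0341600 and Os07g0677400. Of their like genes, 7 of 13, 27 of 53, 26 of 43 and 20 of 32 had a higher q, in that order. What set q-values apart from those of like genes was not tested.

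In all, 6 of the 99 genes stood above the q of every like gene, namely Os12g0458100, Os03g0251000, Os01g0123900, Os02g0581100, Os03g0278900 and Os07g0556200 (petC, described below). The same count was not made over the rest of the blade genes, so nothing is read from this number. A gene with few like genes also stands above all of them more easily. Os03g0251000 had a deposited q of 1.28e-07 where its 6 like genes had a median of 9.25e-75 in the authors' table. Os01g0123900 had 0.0111 against a median of 5.33e-07 over 340 like genes in the authors' deposited table. Os02g0581100 was at 0.0133 against 1.81e-10 over 49 in the authors' deposited table. For petC and Os03g0278900 the authors' deposited q was 0.0309 and 0.0417, with medians of 1.58e-07 over 24 and 4.90e-05 over 33 like genes. Since these genes were picked for a q above that of every like gene, the difference restates the choice. For petC and Os03g0278900 the window also reached further into larger falls than into smaller ones, because no listed blade log2 fold change was under 0.165 in size.

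Other genes changed much in 1 tissue and little in the other. Os03g0782200 had sheath levels of 11.5 in control and 54.6 with salt, and the authors' deposited table gives 2.15 on the log2 scale (adjusted p = 9.7e-17). Its blade means were 223.9 and 212.7 TPM, for which the authors' deposited table gives -0.27 (q = 0.0209). Os01g0532300 was similar, at 0.673 and 3.75 in sheaths but 42.4 and 36.8 TPM in blades. Their sheath log2 fold changes were thus several times their blade ones in size.

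Os03g0251000 was the reverse case. Blade mean TPM went from 159.5 to 42.5, and the authors' deposited table gives -2.10 on the log2 scale. Its sheath level was 107.2 in control and 177.8 with salt, for which the authors' deposited table gives 0.72 (adjusted p = 0.001). Os06g0610800, at 6.95 and 2.38 TPM in blades and 6.43 and 11.5 in sheaths, had the same lean. Os03g0159900 followed the 7 genes above in the size of the smaller of its 2 changes, with deposited log2 fold changes of 0.93 in sheaths and -0.96 in blades in the authors' tables, from 75.8 to 145.8 and from 135.2 to 79.1 TPM.

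Genes of the chloroplast and of photorespiration were present among the 99, all with modest changes. Their names were checked against a reference table of another assembly, and a name is printed only where that table holds it on the chromosome stated by the ID. petC, ADI1, CHLH and PPT3 were picked out after their values had been seen.

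ADI1 (Os08g0104600), a ferredoxin, the small iron-sulfur protein that carries electrons away from photosystem I, was the third most abundant of the 99 genes in blades. It was at 5406 TPM in control blades and 4502 TPM with salt, and its sheath level was 1799 in control and 2858 with salt. The authors' deposited tables give log2 fold changes of -0.45 in blades (q = 1.00e-10) and 0.67 in sheaths (adjusted p = 0.001). Both were smaller in size than the medians of the 99 genes, -0.50 in blades and 0.74 in sheaths.

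petC (Os07g0556200) encodes the Rieske iron-sulfur protein of the cytochrome b6f complex, which passes electrons between the photosystems. Blade means were 2874 and 2807 TPM, and sheath levels 621.3 and 985.9, control first. The authors' deposited log2 fold changes were -0.23 in blades (q = 0.0309) and 0.67 in sheaths (adjusted p = 0.004). Its blade difference was small. Its q was above that of all 24 blade genes in its window of fold and reads, which reached further into larger falls.

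CHLH (Os03g0323200) is the H subunit of magnesium chelatase, the enzyme at the first step that commits a porphyrin to chlorophyll. It had the largest blade fall among the abundant genes and the smallest sheath rise of all 99. Blade mean TPM went from 1003 to 586.5, which the authors' deposited table gives as -0.78 on the log2 scale (q = 4.54e-32). Sheath levels were 160.3 and 230.1, which the authors' deposited table gives as 0.52 (adjusted p = 0.003).

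GLO1 (Os03g0786100), a glycolate oxidase of photorespiration, was at 1884 and 1818 TPM in blades and at 365.6 and 650.2 in sheaths. The authors' deposited tables give log2 fold changes of -0.24 (q = 0.00283) and 0.83 (adjusted p = 2.3e-04). Fd-GOGAT (Os07g0658400), the ferredoxin-dependent glutamate synthase that takes back ammonium released in photorespiration, was at 544.5 and 491.3 TPM in blades and at 128.8 and 223.3 in sheaths. Its deposited log2 fold changes were -0.34 (q = 6.95e-06) and 0.79 (adjusted p = 1.5e-05) in the authors' tables. Both of these genes had the larger deposited log2 fold change in sheaths.

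PPT3 (Os01g0172100), a transporter that exchanges phosphoenolpyruvate for phosphate across the plastid membrane, was far less abundant, at 23.9 and 17.1 TPM in blades and 10.6 and 18.0 in sheaths. Its deposited log2 fold changes were of about the same size in both directions, at -0.67 (q = 3.63e-06) in blades and 0.71 (adjusted p = 0.003) in sheaths in the authors' tables. This depends on the measure, since the log2 TPM ratio in blades was -0.48 and the tested estimate in sheaths 0.79.

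**Figure D3:**
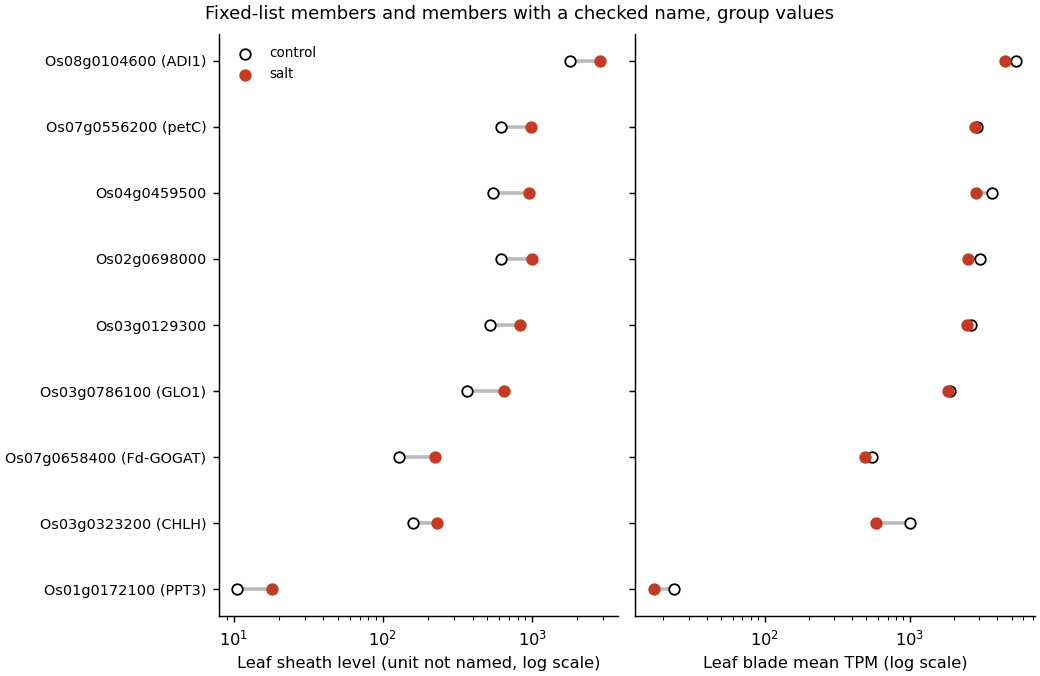
Control (open) and salt (filled) group values of the 5 genes found in gene lists and the 4 others with a checked name, as deposited sheath level on the left and mean blade TPM on the right, on log axes. Every gene moves right in sheaths and left in blades, and the blade shift is smallest for petC (2874 to 2807 TPM) and largest for CHLH (1003 to 586.5 TPM).

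Of 16 lists of known rice genes, with 126 pairs of list and gene, 2 lists held members of the 99. The photosynthesis list had 13 genes, of which 11 were lower in blades, none was higher and 2 were not listed. In sheaths 5 of the 13 were higher, none was lower and 8 were not listed. Over the whole tables, 48.1% of blade genes were lower by mean TPM and 45.6% of sheath genes were higher. Only 4 of the 13 were in both tables and could be members, and all 4 were, where 12.8% of all shared genes were. They were GLO1 and 3 genes whose names could not be checked, Os04g0459500, Os02g0698000 and Os03g0129300.

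Those 3 genes had similar levels in both tissues and unequal blade falls. Os04g0459500 was at 3655 and 2840 TPM in blades and 547.2 and 949.5 in sheaths. Os02g0698000 was at 3053 and 2518 TPM in blades and 615.3 and 998.8 in sheaths. Os03g0129300 was at 2630 and 2463 TPM in blades and 519.4 and 825.7 in sheaths. Their deposited blade log2 fold changes were -0.56, -0.46 and -0.29 in the authors' table, in the same order. The fifth gene of the photosynthesis list that was higher in sheaths, Os01g0869800, was not in the blade table, with sheath levels of 523.6 and 952.1.

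The nitrogen assimilation list had 10 genes, with 4 lower and 3 higher in blades, and 3 higher and none lower in sheaths. Of its 3 genes in both tables, Fd-GOGAT was the 1 among the 99. The other 2 genes higher in sheaths, for nitrate reductase NIA1 and ammonium transporter AMT1;1, were higher in blades as well. The remaining 14 lists, which cover hormones, osmotic protection, ion and water transport, sugar metabolism and other functions, held none of the 99 genes. The circadian clock, gibberellin, jasmonate, mineral nutrient (phosphate, iron and silicon), secondary cell wall and shoot meristem lists had no gene in both tables and could hold none. The others had 1 to 5 genes each in both tables, where 12.8% of all shared genes were members. Nothing is read from the absence of members in lists this small. The lists were drawn up from general knowledge with earlier results of these data known, and a count over a list is a description.

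The 99 genes were abundant in control blades. Their median was 118 TPM, with a range of 1.26 to 7306 TPM. The opposite class, lower in sheaths and higher in blades, had a median of 41.2 TPM. Genes higher in both tissues had a median of 12.5 TPM, genes lower in both 23.7 TPM, and all blade genes that were lower with salt 24.1 TPM.

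The gap was widest at the top. At 1000 TPM or more in control blades were 18 of the 99 genes, or 18.2%, against 3.33% of all blade genes that were lower with salt. Among the other shared genes there were 6 such genes of 458 higher in both (1.31%) and none of the 172 or the 47. Of all 84 listed blade genes at 1000 TPM or more, 74 were lower with salt, so few at this level could fall in the classes higher in blades. Those 18 genes held 81.6% of the summed TPM of the 99, and the sum over all 99 went from 6.41% of all blade TPM in control to 5.56% with salt. Control values are part of the contrast that chose the genes, so these levels were not tested.

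**Figure D4:**
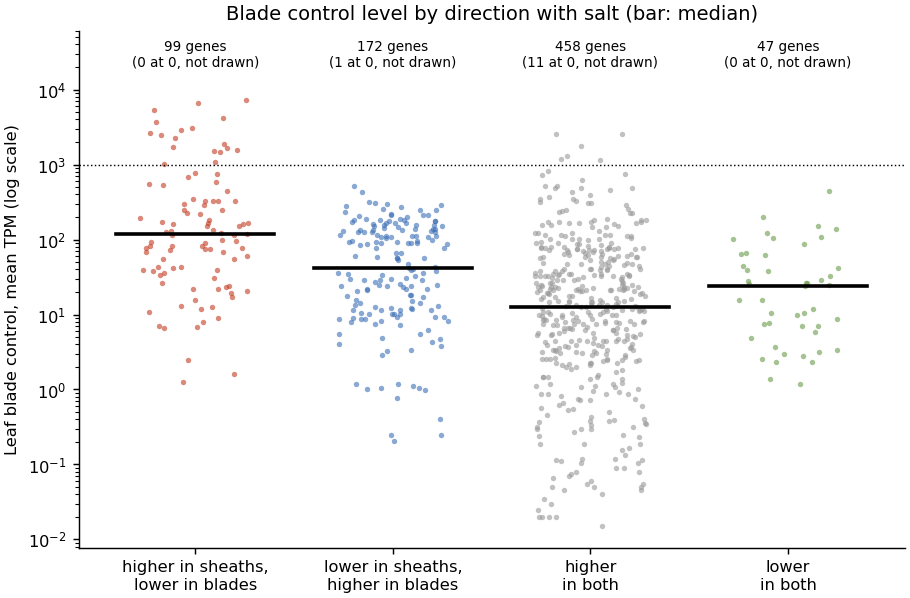
Mean TPM in control blades (log axis) of the 776 shared genes by direction with salt, 1 point per gene spread sideways at random, with a bar at the median; the 12 genes at 0 TPM are counted above the columns and not drawn. The 99 genes higher in sheaths and lower in blades have the highest median, 118 TPM, and 18 of them lie at or above the dotted line at 1000 TPM.

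The most abundant of the 99 in blades was Os02g0197600, at 7306 TPM in control and 6998 TPM with salt. Os12g0420400 followed at 6621 and 6403 TPM, and it had the highest sheath levels, at 2183 and 3425. The sheath level of Os02g0197600 was 2011 in control and 3061 with salt. Both genes were thus near the top of the shared genes in both tissues and in both conditions. Os05g0496200 was the fourth in blades, at 4195 and 3182 TPM, with sheath levels of 945.4 and 1461. Os02g0581100, at 1250 and 2000, was among the highest 4 in sheaths with salt, and had 2290 and 1827 TPM in blades.

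Within the 18 most abundant genes the deposited blade log2 fold change ranged from -0.78 to -0.20 with a median of -0.42 in the authors' table. Their deposited sheath log2 fold change ranged from 0.52 to 1.01 with a median of 0.67 in the authors' table. Os10g0492300 was the 1 gene of the 18 past 1 in sheaths, from 167.0 to 336.7, and had 1087 and 780.9 TPM in blades. Their blade falls in TPM ran from 1.89% to 41.5%, and their sheath levels were 1.44-fold to 2.02-fold higher.

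Listed blade falls were larger in genes of low level. Every listed blade gene had a deposited q of at most 0.04995, a limit that tends to leave out small falls of genes with few reads. Its part in this ordering was not tested. The 8 genes under 10 TPM had a median deposited blade log2 fold change of -1.51 in the authors' table, the 39 from 10 to under 100 TPM -0.57, the 34 from 100 to under 1000 TPM -0.38 and the 18 above that -0.42. All blade genes that were lower showed the same ordering at the lower levels, with medians of -1.04, -0.58, -0.47 and -0.50 in the authors' deposited table. Sheath medians in the same 4 ranges were 0.80, 0.76, 0.77 and 0.67, a narrower span on this measure. They use the deposited sheath fold change, in which the 1 added to each level shrinks changes of genes low in sheaths. Spearman's rho between blade control TPM and deposited blade log2 fold change was 0.53 over the 99 genes, which share libraries and in which both values use the control mean.

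Among blade genes that were lower with salt, the share also listed as higher in sheaths increased with the blade level. It was 1.37% of 585 genes under 10 TPM, 3.34% of 1166 from 10 to under 100 TPM, 9.32% of 365 from 100 to under 1000 TPM and 24.3% of 74 at 1000 TPM or more. The same shares were not taken over blade genes that were higher with salt, so the increase is not read as particular to genes that fell. At 1000 TPM or more, 6 blade genes that were higher with salt were also higher in sheaths. The share listed as lower in sheaths was 3.08%, 1.80% and 2.19% in the first 3 ranges, from 18, 21 and 8 genes, and no gene at 1000 TPM or more was. Whether level decides which genes the sheath table lists was not tested, and the 56 genes at 1000 TPM or more that were not in the sheath table have no sheath value at all. Seen from the sheath, 11.1% of 888 higher genes were lower in blades, 458 were higher in blades and 331 were not in the blade table.

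Level and organ were compared through percentile ranks among the 776 shared genes, since the 2 tables have different units. In control, the 99 genes had a median rank of 79.7 in blades and 58.8 in sheaths, and 87 of them, or 87.9%, ranked higher in blades. In the other classes this held for none of 172, for 61.8% of 458 and for 19.1% of 47. Control values are part of the contrasts that chose the classes, and the rule favours a high blade control and a low sheath control. These ranks were thus not tested, and nothing is read from the difference between classes. With salt the median ranks were 65.1 in blades and 62.7 in sheaths, and 57 of the 99 ranked higher in blades.

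Blade rank minus sheath rank had a median of 15.3 percentile points in control and 1.03 points with salt, and this signed difference was lower with salt for 96 of the 99. The rule itself pushes it in this direction. The distance between the ranks, without sign, was smaller with salt for 71 genes, larger for 25 and the same for 3. Spearman's rho between blade control TPM and sheath control level was 0.84 over the 99 genes and 0.73 over the 776, on levels that are not given per the same unit.

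**Figure D5:**
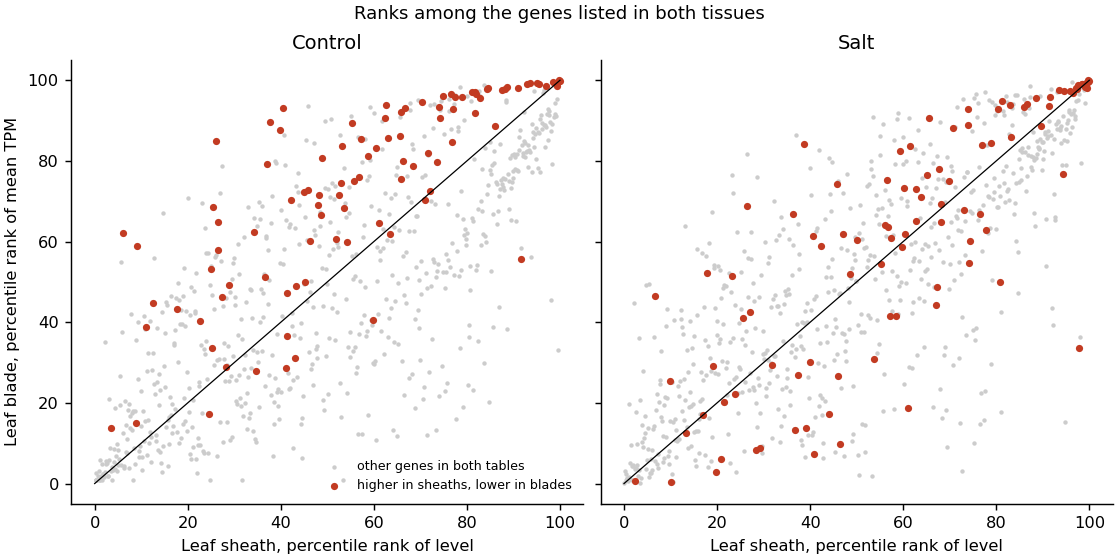
Percentile rank of sheath level (horizontal) and of mean blade TPM (vertical) among the 776 shared genes, in control on the left and with salt on the right, with the 99 genes in red and equal ranks on the line. In control 87 of the 99 lie above the line, and with salt 57 do.

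In control 11 of the 99 genes ranked higher in sheaths than in blades. Os11g0644700 did so by the widest margin, with 31.0 TPM in control blades and 20.7 TPM with salt, while its sheath level went from 470.2 to 845.8. Its blade rank was 35.8 points below its sheath rank in control and 64.2 points below with salt. At the other end, Os03g0169600 ranked 58.9 points higher in blades in control, at 162.6 TPM against a sheath level of 5.91. Os03g0169600 fell in blades to 108.4 TPM and reached 14.8 in sheaths with salt. Os01g0532300 was next, with a gap of 56.1 points.

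The 99 genes were spread over all 12 chromosomes. Chromosome 3 held 17, chromosome 1 held 15, chromosome 2 held 14 and chromosome 4 held 12. Chromosome 4 thus held 12.1% of the 99 against 8.38% of the 776 shared genes, while chromosome 10 held 1.01% against 5.67% and chromosome 9 held 2.02% against 5.41%. Reads per TPM, which track transcript length, had a median of 0.92 relative to the blade table, against 0.72 for genes lower in sheaths and higher in blades, 0.95 for genes higher in both and 1.06 for genes lower in both.

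Among them, 12 genes formed 6 pairs with locus numbers within 1000 of each other. Os05g0375400, one of the 7 with large changes, stood beside Os05g0375600, which was at 34.2 and 29.6 TPM in blades and 6.01 and 14.5 in sheaths. Os03g0251000 stood beside Os03g0251350, at 244.7 and 155.9 TPM in blades and 42.8 and 77.1 in sheaths. Os12g0420200 and Os12g0420400 were both above 1000 TPM in control blades. In the first pair the blade change differed widely, at -1.89 and -0.40 in the authors' deposited table.

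The other pairs were Os02g0223700 with Os02g0224100, Os02g0697500 with Os02g0698000, and Os03g0242300 with Os03g0243100. Os02g0697500 was at 90.9 and 85.0 TPM in blades, far below its neighbour. Whether reads were counted by strand is not given in the sources used here, so reads of overlapping neighbours could not be told apart.

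The rule sets no minimum size, so the limit on the blade side ran through very small differences. Just inside were Os01g0191200, at 290.9 and 287.4 TPM, Os03g0278900, at 1456 and 1429 TPM, and Os01g0279700, at 351.8 and 344.9 TPM. Just outside were Os08g0526300, at 485.9 and 487.0 TPM, and Os03g0311300, at 352.5 and 362.9 TPM, both higher in sheaths. Those 2 genes had negative deposited blade log2 fold changes, -0.19 and -0.21 in the authors' table. Over all blade genes that fold change differed from the log2 TPM ratio by a median of -0.19. The third outside, Os03g0429800, was at 42.9 and 50.3 TPM.

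On the sheath side the limit fell in a gap, because the authors' table lists selected genes. The smallest rises inside were those of CHLH, Os03g0125600 and Os01g0618800, at 0.52 each in the authors' deposited table. Os03g0125600 went from 37.3 to 53.9 in sheaths and from 13.2 to 8.70 TPM in blades. The nearest gene on the other side was Os09g0361400, at -0.55 in sheaths in the authors' deposited table.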

How the data were processed

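RNA was sequenced from 8 samples in 4 groups of 2, and groups were taken from the sample labels. HISAT and the build mm10 are named per the submitters' processing notes. That is a mouse build and cannot be the build of rice IDs, and for the settings, counter, annotation and test the entry is "not given in the sources used here". From the authors came 1 table per tissue of genes already selected as changed, with 1 value per group. Per the file headers, the blade table holds a log2 fold change, mean TPM, mean FPKM, mean estimated counts of reads and a q-value, with Case1 taken as salt. Per the file headers, the sheath table holds a log2 fold change, a level of unnamed unit, a standard error, a test statistic (a score) and an adjusted p-value. The highest deposited q-value was 0.0499 in blades, and the highest adjusted p-value 0.004 in sheaths.

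No test across genes was run, since the tables hold no value per sample and the directions chose the genes. Computed here were counts by direction, medians, percentile ranks, and exact Clopper-Pearson 95% intervals of the blade read ratio from the mean reads times 2 libraries, scaled by the median offset of the deposited fold change. These intervals cover counting error only. Scripts were checked on simulated data. The members, lists and rules were chosen with earlier results of these data known. Named genes are the 8 with the largest change in both tissues, the 6 largest sheath rises and blade falls, the 4 most abundant in each tissue, list members, genes at the limits of the rule and neighbours. Others, among them petC, ADI1, CHLH, PPT3 and the genes singled out by q-value or rank, were named after their values were seen. The reference name table (assembly ASM3414082v1) held 0 of the 5827 IDs, so names were matched by symbol and chromosome. Of 126 name and ID pairs, 97 matched, 1 occurred more than once, 2 were on another chromosome and 26 were not in the table. No coordinates or sequences are given. Of the 18 shared IDs set aside, 1 met the direction rule and is not reported here. Alternatives changed the measure behind each direction, the size and q limits, low values and the pseudocount. The work used SciPy 1.17.1 and numpy 2.4.6 under Python 3.11.15, with pandas 2.3.3 for tables and matplotlib 3.10.9 for plots.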

Additional observations from a re-analysis of the deposited data

How the results depend on the processing

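The set of 99 genes was nearly the same under other measures of direction. Taking the blade direction from the deposited log2 fold change, mean reads or mean FPKM gave 101 genes each time, with all 99 kept and 2 added. The sheath test statistic, a minimum of 10 mean blade reads and a sheath level of 1, and a counting interval below 1 each left 99. All these measures come from the same samples, on genes already selected as changed. They had little room to alter the set, so nothing is read from its stability. A blade q no higher than 0.004, the highest sheath adjusted p, left 74. Requiring a log2 change of at least 1 in both tissues left 7, since most changes are smaller. The median blade log2 fold change of -0.50 became -0.33 as a TPM ratio with a pseudocount of 0.1 and -0.31 with 1. The median sheath value of 0.74 became 0.80 as statistic times standard error. Without the 18 genes at 1000 TPM or more, an alternative added after seeing the data, the medians were -0.53 and 0.77.

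No paired analysis was possible because the tables hold group values only, and for the same reason leaving out single replicates could not be run. Genes not listed in a tissue have no value there. Depth limits the blade values most for genes with few reads, such as Os08g0167800 with a mean of 41.5 control reads.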
